A study of Rattus norvegicus with 8 samples.

Results

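The genes described here are 9 germline regulators measured in rat ovary: the transcription factors Figla, Nobox, Sohlh1, Lhx8 and Pou5f1, and the RNA-binding or RNA-processing factors Ddx4, Dazl, Mael and Ybx2. They were chosen by name, and every non-control probe carrying one of these names on the Agilent rat expression array was taken, which gave 10 of the 30350 probes kept and 9 of their 26204 gene names. Dazl had 2 probes and each other gene had 1. All 10 passed the filter on dim probes and were tested.

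RNA came from whole ovaries of female rats, 4 samples labelled control and 4 labelled PMSG, hybridised to 1 array each. Pregnant mare serum gonadotropin (PMSG) acts mainly like follicle-stimulating hormone and drives follicle growth in immature animals. At 26 days of age, animals labelled PMSG received 50 IU of it under the skin in an albumin phosphate buffer (0.2 ml), and animals labelled control received the same volume of buffer alone. Ovaries were removed after 48 h, at 28 days of age in both groups. The strain, and whether a sample is 1 animal or a pool, are not given in the sources used here, so p-values measure the spread between these samples.

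These regulators act in the oocyte and its precursors. FIGLA, NOBOX, SOHLH1 and LHX8 work in oocytes of primordial and primary follicles, where they drive the genes of follicle formation and early growth, those of the zona pellucida among them. DDX4, DAZL, MAEL and YBX2 act on RNA, in germ granules, in translation, in the silencing of transposons and in the storage of maternal messages. In whole ovary, fewer oocytes among the cells sampled and less of a transcript in each oocyte cannot be told apart.

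The array measured each transcript with probes of 60 bases. The first 30 bases of each are given here, 5′ to 3′, to show which stretch of which transcript the values below report on; no part is marked. The 2 Dazl probes start at bases 983 and 2695 of the same transcript, so they are not independent.
Figla: ctcacgtgtcctcgactagagagctcttgg
Nobox: gcaccagaggaggtcagagacaaaaataag
Sohlh1: tttggcagccctggcctggccctgaaggat
Lhx8: aataacactctagtttacgaagcctaccat
Pou5f1: aggcctttccctctgttcctgtcactgctc
Ddx4: tgttcatcgaattggacgtactggacgttg
Dazl, from base 983: taaaagagtacatcactttagaagaagtcg
Dazl, from base 2695: tttgttggagtcaagtatttaagagaaggg
Mael: gaagagggattacccgcttactagagagca
Ybx2: ggaggatgtctttgttcaccagacagctat
Their GC content ran from 36.7% (Lhx8 and the Dazl probe from base 2695) to 55.0% (Figla, Sohlh1 and Pou5f1). On the rn4 build the probes lie at chr4:120160539-120160598 (Figla, plus strand), chr4:71072318-71072377 (Nobox, minus), chr3:4015657-4015716 (Sohlh1, minus), chr2:252216613-252216672 (Lhx8, minus), chr2:43967963-43968022 (Ddx4, minus) and chr13:81935390-81935449 (Mael, minus). The Dazl probes lie at chr9:5913983-5914042 and chr9:5915695-5915754 on the plus strand. The Pou5f1 probe was placed by the array files on unordered sequence of chromosome 20, from 2722 to 2781 on the minus strand. The Ybx2 probe covers 905 bases of the genome, chr10:56782788-56783692, on the plus strand, more than its own length.

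Signals at the 75th percentile ran from 769 to 1103 over the 8 arrays, and from 80.8% to 84.6% of probes were well above background. All 8 arrays had a higher mean correlation with arrays of the same label than with arrays of the opposite label. Several genes of hormone response moved against the direction generally known for gonadotropin: the luteinising hormone receptor gene Lhcgr and the steroidogenic genes Star and Cyp11a1 were lower in arrays labelled PMSG, with log2 differences of -1.93, -2.75 and -3.36 (limma adjusted p = 0.00114, 0.00541 and 2.32e-04), and Amh was higher by 3.03 (limma adjusted p = 2.61e-04). Directions below follow the labels as given, and every one of them would turn if the 2 labels were exchanged, which was not tested. All 11 granulosa cell markers on the array were above background on all 8 arrays, Fshr and Foxl2 among them. So were all 7 adipocyte markers, and with most probes detected this does not identify the tissue.

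Of the 10 probes, 8 were higher in arrays labelled PMSG, those of Figla, Nobox, Sohlh1, Lhx8, Ddx4, Dazl and Mael, and each of these 8 was at least 2-fold higher. No probe was lower past the threshold, and Pou5f1 and Ybx2 did not pass. Over all 25303 tested probes 34.2% passed the threshold (limma, Benjamini-Hochberg adjusted p under 0.05), 17.6% were higher in arrays labelled PMSG and 7.2% were at least 2-fold higher. The median log2 difference of the 10 probes was 1.71, against 0.11 over all tested probes. In 8 of the 10 every array labelled PMSG stood above every array labelled control, which held for 17.9% of all tested probes. Levels are given below as log2 signal minus the 75th percentile of the array, for arrays 1 to 4 of each label, and differences are on the same log2 scale.

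**Figure D1:**
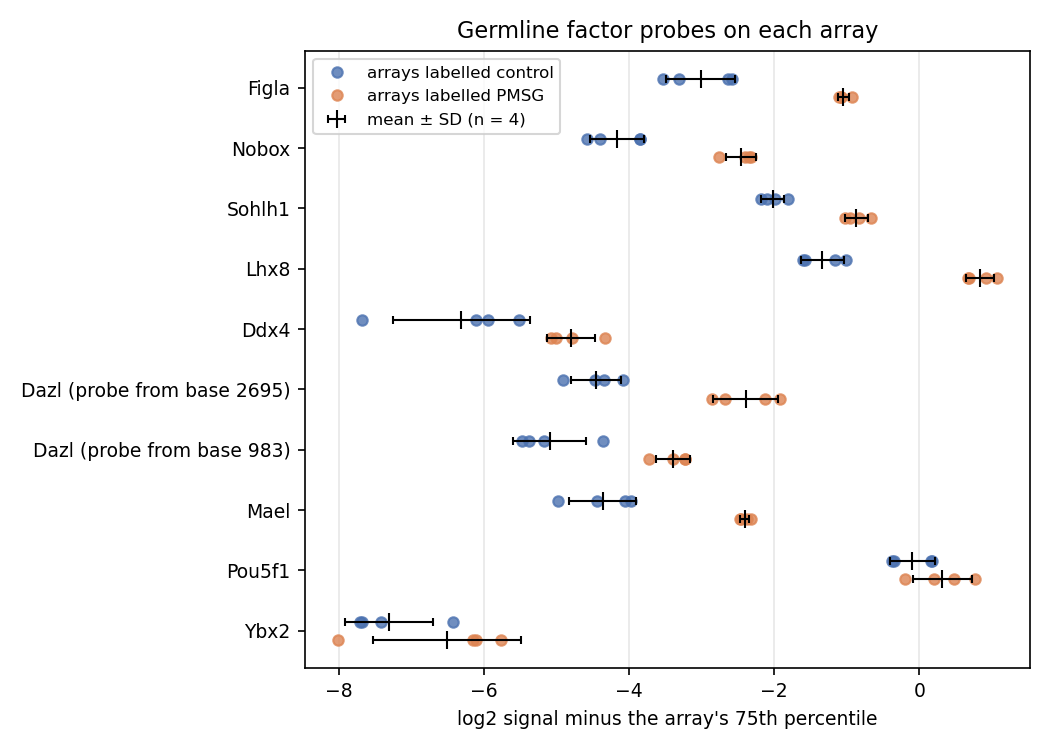
Level of each probe on each array, as log2 signal minus the array's 75th percentile (x axis), with arrays labelled control in blue and arrays labelled PMSG in orange; black marks are the mean ± SD over 4 arrays. The labels are separated without overlap for 8 probes and overlap for Pou5f1 and Ybx2; levels of different probes are not comparable with each other.

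Figla encodes a basic helix-loop-helix factor that activates the zona pellucida genes. Its level was -3.31, -2.64, -2.58 and -3.53 on arrays labelled control, and -1.08, -1.10, -0.93 and -1.07 on arrays labelled PMSG. The PMSG-labelled arrays lay close together and 1.48 above the highest control-labelled array. Figla was thus higher by 1.97 (SE 0.22, limma adjusted p = 4.66e-04), a 3.92-fold difference with a 95% interval from 2.75 to 5.57.

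Nobox, a homeobox gene of early oocytes, stood at -4.40, -3.84, -3.84 and -4.57 on arrays labelled control and at -2.32, -2.34, -2.41 and -2.75 on arrays labelled PMSG. The groups did not overlap, and control arrays 1 and 4 were the lowest, as they were for Figla. Nobox rose by 1.71 (SE 0.20, limma adjusted p = 5.31e-04), or 3.27-fold (95% interval 2.38 to 4.49).

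Sohlh1, a helix-loop-helix factor of early germ cells in both sexes, had the narrowest control-labelled spread of the 10 probes, at -1.98, -1.82, -2.18 and -2.10. Arrays labelled PMSG gave -1.02, -0.84, -0.66 and -0.96, all above the control-labelled arrays. Its difference, 1.15 (SE 0.12, limma adjusted p = 3.79e-04), was the lowest of the 8 that passed, at 2.22-fold (95% interval 1.83 to 2.70).

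Lhx8, a LIM homeobox gene required in oocytes of primordial follicles, had levels of -1.60, -1.01, -1.17 and -1.58 on arrays labelled control. The levels on arrays labelled PMSG were 0.92, 1.07, 0.67 and 0.68, with a gap of 1.68 between the groups. Its difference of 2.17 (SE 0.17, limma adjusted p = 1.14e-04) was the highest estimate among the 10 probes, 4.51-fold with a 95% interval from 3.45 to 5.91.

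Pou5f1 encodes the pluripotency factor OCT4, which is kept on in the germ line. Control-labelled levels were 0.16, -0.35, 0.18 and -0.37, and PMSG-labelled levels were 0.48, 0.20, 0.77 and -0.19. The groups overlapped, PMSG array 4 lying below control arrays 1 and 3. The difference of 0.41 (SE 0.23) did not pass (limma adjusted p = 0.201), and its 95% interval, from 0.92-fold to 1.93-fold, leaves room for a rise of up to that size. The 2 spots of this probe differed by up to 1.15 log2 units within an array, against at most 0.43 for Figla, Nobox, Lhx8, Mael and the Dazl probe from base 2695.

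Ddx4 encodes the RNA helicase VASA, a marker of germ cells. Its probe was dim, with control-labelled levels of -7.67, -5.52, -6.11 and -5.94 and well above background on 3 of these 4 arrays. Levels on arrays labelled PMSG were -5.00, -4.34, -5.07 and -4.79, above background on all 4 and above every control-labelled array by at least 0.45. The labels differed by 1.51 (SE 0.43, limma adjusted p = 0.0287). With control levels raised to the lowest signal well above background on their array, the difference of Ddx4 was at least 2.27-fold. The call was lost under quantile normalization (limma adjusted p = 0.0860), with array weights (0.0546), and without control array 3 (0.0513), PMSG array 1 (0.0524) or PMSG array 2 (0.0736). Over 16 alternatives its adjusted p lay between 0.00617 and 0.0860, and its difference was only 0.48 with normexp background correction, against 1.51.

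Dazl encodes an RNA-binding protein that promotes translation in germ cells, and both of its probes were higher in arrays labelled PMSG. The probe from base 983 read -5.38, -4.35, -5.17 and -5.47 on arrays labelled control and -3.22, -3.23, -3.40 and -3.72 on arrays labelled PMSG. The probe from base 2695 read -4.91, -4.08, -4.35 and -4.47 against -1.92, -2.12, -2.85 and -2.68. Neither probe's groups overlapped, and control array 2 was the highest control-labelled array on both. The differences were 1.70 (SE 0.25, limma adjusted p = 0.00151) and 2.06 (SE 0.25, limma adjusted p = 6.70e-04), with overlapping 95% intervals of 1.12 to 2.28 and 1.48 to 2.64.

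Mael, a component of the pathway that silences transposons in germ cells, was measured at -4.44, -4.05, -3.98 and -4.98 on arrays labelled control and at -2.47, -2.33, -2.46 and -2.38 on arrays labelled PMSG. The SD was 0.46 among the former and 0.07 among the latter, and the groups were 1.51 apart at their nearest. Mael rose by 1.96 (SE 0.21, limma adjusted p = 4.11e-04), or 3.88-fold (95% interval 2.76 to 5.45).

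Ybx2, which encodes a cold-shock protein that packages stored messages in oocytes and spermatids, was near the limit of detection. It was well above background on 1 of 4 arrays labelled control and on 3 of 4 labelled PMSG. Levels were -7.41, -6.42, -7.67 and -7.70 on the former and -6.11, -6.15, -5.76 and -8.01 on the latter. PMSG array 4 was the lowest of all 8, and the 2 spots of the probe differed by up to 2.67 log2 units within an array. Its difference of 0.80 (SE 0.51) did not pass (limma adjusted p = 0.255), with a 95% interval from 0.77-fold to 3.93-fold. Without PMSG array 4 it was 1.30 and passed (limma adjusted p = 0.0157), in a range of adjusted p up to 0.574 over its alternatives.

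The next comparison asked whether the germline regulators differed by more or less than other oocyte genes on the same arrays. The reference was the mean of 14 oocyte genes above background on all 8 arrays: the zona genes Zp1, Zp2 and Zp3, the growth factors Gdf9, Bmp15 and Bmp6, the receptor gene Kit, and Padi6, H1foo, Npm2, Nlrp5, Zar1, Khdc3 and Kpna7, most of them maternal-effect genes. This mean ran from -2.45 to -1.90 on arrays labelled control and from -1.05 to -0.25 on arrays labelled PMSG. After subtracting it, 90.9% of all tested probes passed the threshold, 90.4% lower and 0.431% higher in arrays labelled PMSG, since most ovarian transcripts did not share the rise of the reference.

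Against this reference 7 of the 10 probes did not pass. Their differences from the reference were 0.34 for Figla (95% interval -0.23 to 0.92), 0.08 for Nobox (-0.44 to 0.60), -0.48 for Sohlh1 (-1.04 to 0.08), -0.12 for Ddx4 (-0.83 to 0.60) and 0.33 for Mael (-0.25 to 0.91). The Dazl probes stood at 0.08 (from base 983, -0.46 to 0.61) and 0.43 (from base 2695, -0.10 to 0.96). The intervals thus allow differences of up to about 1 log2 unit from the other oocyte genes in one direction or the other.

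Pou5f1 differed between labels by less than the reference, by 1.21 on the log2 scale (-1.21, SE 0.29, limma adjusted p = 6.17e-04). It passed under all 19 alternatives tried, but 90.4% of all tested probes were likewise called lower against this reference. Ybx2 had a fitted difference of -0.83 (SE 0.34, limma adjusted p = 0.0286). It was below background on 3 of 4 arrays labelled control, where its level is only an upper limit, so this value does not give the direction of its difference from the reference. It also missed the threshold when control array 1 (0.0614), control array 2 (0.0967) or PMSG array 4 (0.124) was omitted, and with the zona genes left out of the reference (0.0644). Lhx8 differed between labels by more than the reference, by 0.55 (SE 0.25, limma adjusted p = 0.0432). That call was lost under 11 of 19 alternatives, with adjusted p-values over all of them from 0.00655 to 0.207, among them every omission of 1 array except PMSG array 1. Sohlh1 passed with a smaller difference than the reference without PMSG array 4 (-0.61, limma adjusted p = 0.0296) and with array weights (-0.62, 0.0282). It also did so without Kit and Bmp6 in the reference (-0.66, 0.0375), in a range up to 0.293.

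**Figure D2:**
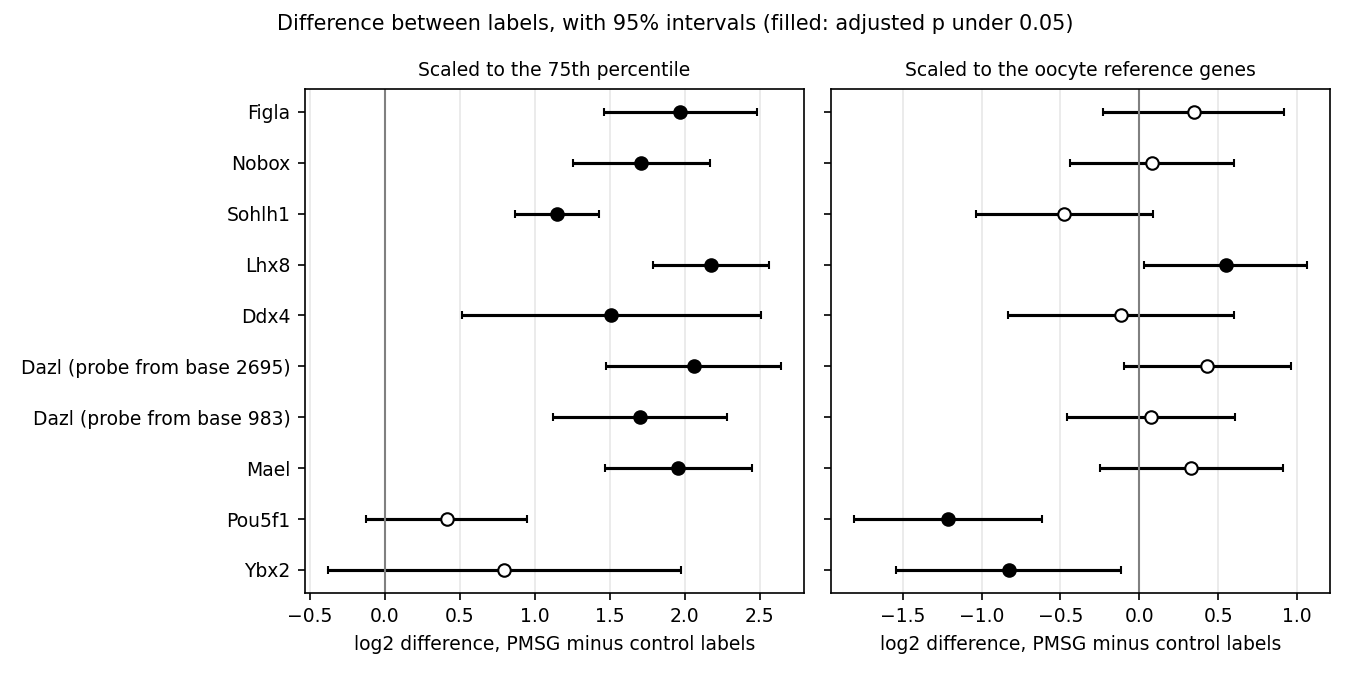
Log2 difference of each probe, arrays labelled PMSG minus arrays labelled control (x axis), after scaling to the 75th percentile (left) and after subtracting the mean of 14 oocyte reference genes (right); bars are 95% intervals from limma and filled points have an adjusted p under 0.05. On the left 8 probes are filled, and on the right Lhx8 lies above 0 and Pou5f1 and Ybx2 below it, Ybx2 with most arrays labelled control below background.

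Among the 14 reference genes themselves, 12 were higher in arrays labelled PMSG and 2 did not pass, with a median log2 difference of 1.87. Npm2, H1foo, Zar1 and Zp2 had the largest differences, 2.30, 2.22, 2.18 and 2.17 (limma adjusted p = 3.81e-04, 5.79e-04, 5.50e-04 and 0.00148). Npm2 encodes a histone chaperone and H1foo the linker histone of oocytes. Bmp6 (0.21) and Kpna7 (0.74) did not pass (limma adjusted p = 0.403 and 0.0528). Bmp6 and Kit, which differed by 0.89, are also made by other cells of the ovary.

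Other germline transcription factors, and related genes such as Dppa3, were taken from a list of 16. Of this list 11 were on the array and 8 were tested. Of these 8, 6 were higher, 1 was lower and 1 did not pass, with a median of 1.33 (1.30 with Tbpl2 at its bound). Tbpl2, the oocyte form of the TATA-binding protein, was well above background on 4 arrays labelled PMSG and on 0 labelled control, so that it entered the test only through the group where it is high; its level there was at least 2.88-fold the limit of detection on arrays labelled control. Among the 6 genes above background on all 8 arrays, 5 were higher and 1 was lower, with a median of 1.33. Dppa3, also called Stella, rose by 1.83, the homeobox gene Gsc by 1.71 and Sohlh2, the partner of Sohlh1, by 1.58 (limma adjusted p = 4.95e-04, 0.00105 and 0.0298). The lower gene was Bcl6b, at -0.37 (limma adjusted p = 0.0457). Stra8, the switch into meiosis, was not well above background on any array.

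A list of 34 other germline factors acting on RNA had 31 on the array and 23 tested, of which 14 were higher, 0 lower and 9 not past the threshold. The median was 0.76, or 0.57 with genes partly below background at their bounds. Asz1, 1 of the 14, was above background on 0 arrays labelled control and entered the test only through arrays labelled PMSG. Rnf17, also among the 14, was above background on 2 of 4 arrays labelled control, with a bound of at least 1.29-fold. Among the 18 genes above background on all 8 arrays, 12 were higher and 0 lower, with a median of 0.82. Elavl2, Btg4, Zar1l and Gtsf1 rose most, by 2.23, 1.99, 1.98 and 1.86 (limma adjusted p = 4.75e-04, 0.00161, 6.09e-04 and 1.88e-04). Elavl2 encodes an RNA-binding protein of oocytes, Btg4 an adaptor for the clearance of maternal messages, and Gtsf1 a partner of PIWI proteins. Of the PIWI genes, which bind small RNAs against transposons, Piwil2 rose by 0.76 (limma adjusted p = 0.00119), while Piwil1 (0.33) and Piwil4 (-1.10) did not pass (0.549 and 0.0919). The Piwi genes were named after their values were seen, as partners of the pathway in which Mael acts.

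Of 18 meiosis genes, 17 were on the array and 13 were tested, with 6 higher, 0 lower and a median of 0.76. Smc1b, Tex12 and Mei1 rose by 2.06, 1.94 and 1.09 (limma adjusted p = 5.31e-04, 2.54e-04 and 0.0136). Sycp2, above background on 1 of 4 arrays labelled control, also entered the test through arrays labelled PMSG, with a bound of at least 2.11-fold. Among the 12 meiosis genes above background on all 8 arrays, 5 were higher and 0 lower, with a median of 0.70. Sycp3 and Dmc1 were not well above background on any array.

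Widely expressed relatives of the 9 genes, such as other DEAD-box helicases, Y-box and LIM homeobox genes, were also compared. Of 11 tested, 1 was higher, 2 were lower and 8 did not pass, with a median of -0.0031. Over all tested probes 17.6% were higher and 34.2% passed in either direction, so these counts lie near the whole array. The relatives were also brighter, with mean levels from 0.22 to 0.33 on arrays labelled control, against -3.95 to -3.30 for the 9 genes. Ybx1, the broadly expressed relative of Ybx2, had levels of 4.90 ± 0.08 (SD, n = 4) on arrays labelled control and 4.27 ± 0.15 (SD, n = 4) on arrays labelled PMSG. It fell by 0.63 (limma adjusted p = 0.00253), and the translation helicase gene Eif4a1 fell by 0.99 (limma adjusted p = 3.05e-04). Pou2f1, a broadly expressed POU gene, rose by 0.97 (limma adjusted p = 0.00307).

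Genes of spermatids, which share several of these regulators with oocytes, served as markers of another germ cell. All 16 were on the array, 6 were not well above background on any array, and 9 were tested. Ldhc and Spem1 were higher by 0.71 and 0.78 (limma adjusted p = 0.0146 and 0.0199), and 7 did not pass. Over all tested probes 17.6% were higher. The median log2 difference of the 9 was 0.71, against 0.76 for the meiosis genes and 0.76 for the germline factors acting on RNA. The protamine genes Prm1 and Prm2, the transition protein gene Tnp1 and the acrosin gene Acr were above background on all 8 arrays and did not pass, with differences of 0.05, 0.76, 0.90 and 0.03. Odf1, Tnp2, Akap4, Pgk2, Smcp and Tssk2 were the 6 not well above background on any array. The mean level of the list ran from -5.85 to -5.42 on arrays labelled control and from -5.62 to -5.07 on arrays labelled PMSG.

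Markers of some other cell types moved with the labels beside the germline genes. Over all tested probes 34.2% passed the threshold in either direction and 17.6% were higher. With so few genes, the counts for adipocyte, red blood cell and granulosa markers are not set apart from these shares. Oviduct and surface epithelium had 8 of 13 genes higher and 0 lower, and its mean level ran from -0.89 to -0.39 on arrays labelled control and from 0.22 to 0.72 on arrays labelled PMSG. Muc1 and Dnah5, among the 8, were partly below background on arrays labelled control. Of the 11 genes above background on all 8 arrays, 6 were higher and 0 lower. Leukocyte markers had 6 of 9 higher and 0 lower, with mean levels from 0.15 to 0.42 and from 0.76 to 0.86. In stroma and smooth muscle 4 of 10 were higher and 0 lower, with mean levels from 3.42 to 3.85 and from 3.57 to 4.09. Adipocyte markers had 1 of 7 higher and 0 lower, at -2.17 to 0.48 and -0.71 to 0.65. In the opposite direction, theca and luteal markers had 5 of 8 lower and 1 higher, with mean levels from 3.29 to 3.54 against 1.52 to 2.48. Endothelial markers had 5 of 10 lower and 1 higher, at -1.21 to -0.99 against -1.55 to -1.38, and red blood cell markers 1 of 4 lower, at -1.65 to 0.26 against -2.30 to -1.62. Granulosa markers were divided, with 2 of 11 higher and 3 lower, at 1.81 to 2.53 against 2.09 to 2.43. The mean levels of the adipocyte, granulosa, stroma and red blood cell lists overlapped between labels. For red blood cell markers the lowest control-labelled mean was -1.647 and the highest PMSG-labelled mean -1.624. Median log2 differences were 0.77 for adipocyte, 0.68 for oviduct and surface epithelium, 0.64 for leukocyte, 0.25 for stroma and 0.17 for granulosa markers. They were -0.48 for endothelial, -1.10 for red blood cell and -1.88 for theca and luteal markers. The part of these shifts in the difference of the germline genes was not tested.

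**Figure D3:**
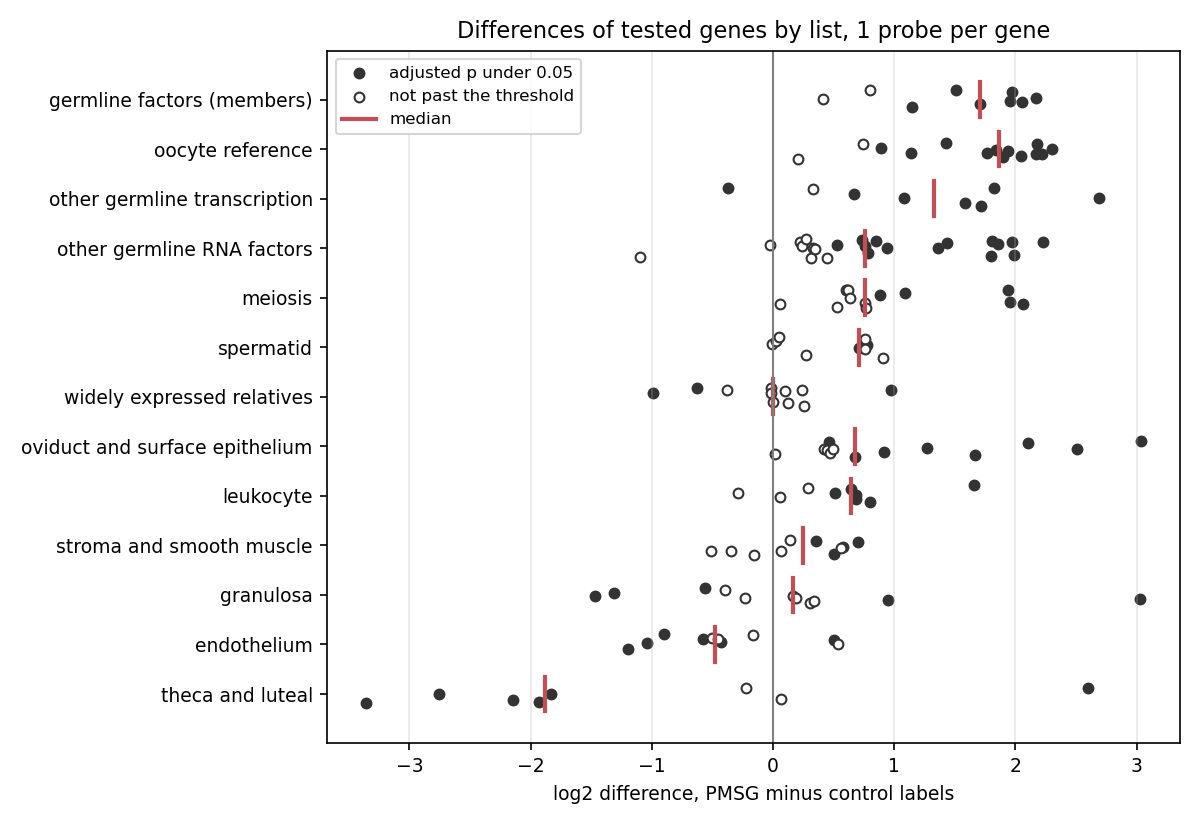
Log2 difference of each tested gene, arrays labelled PMSG minus arrays labelled control (x axis), by gene list with 1 probe per gene; filled points have a limma adjusted p under 0.05 and red bars are medians. The germline factors (median 1.71) and the oocyte reference (1.87) lie to the right, the widely expressed relatives around 0, and Tbpl2, at 2.69, is drawn at its fitted value although no array labelled control was above background.

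Arrays of the same label also differed among themselves in these genes. On control arrays 2 and 3 the level was above that of both control arrays 1 and 4 in 6 of the 10 probes, those of Figla, Nobox, Lhx8, Dazl (both) and Mael, and in 9 of the 14 reference genes (64.3%). The same order was found in 16.3% of all tested probes. Averaged over the 8 germline probes above background on all arrays, control arrays 1 to 4 deviated from their own mean by -0.16, 0.30, 0.18 and -0.32, and PMSG arrays 1 to 4 by 0.10, 0.09, 0.02 and -0.21. The reference genes deviated by -0.26, 0.29, 0.08 and -0.11, and by 0.31, 0.21, -0.03 and -0.49. Control array 2 was thus the highest control-labelled array and PMSG array 4 the lowest PMSG-labelled array in both sets. Neither order was particular to them. PMSG array 4 was also lowest of its label in every other list mean except oviduct, stroma, leukocyte and red blood cell. It had the lowest array weight (0.279) and the lowest mean correlation with its own label (0.9805). Control array 2 was also highest for granulosa (2.53) and the widely expressed relatives (0.33). It was lowest for the meiosis, theca and luteal, leukocyte, oviduct and adipocyte lists. Correlations of these deviations with those of the reference over the 8 arrays, given as a description, ran from 0.14 for Sohlh1 and 0.27 for Pou5f1 to 0.82 for the Dazl probe from base 2695; the values of 1 array share its RNA sample and scaling. The order of the control-labelled arrays was noticed after the values were seen.

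**Figure D4:**
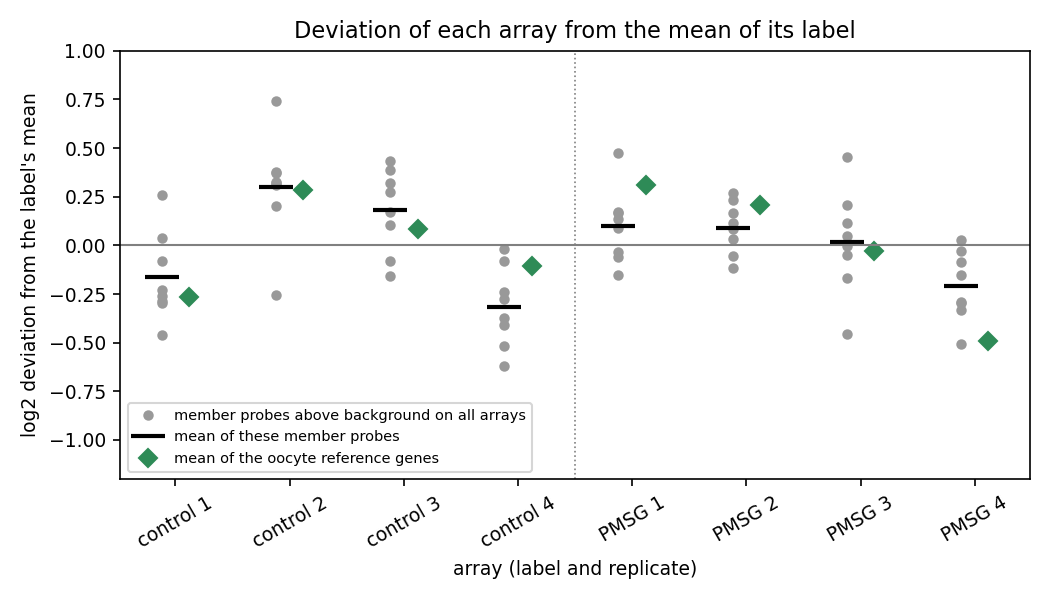
Deviation of each array from the mean of its own label in log2 units (y axis) for the 8 germline probes above background on all arrays (grey points, black bar for their mean) and for the mean of the 14 oocyte reference genes (green). Control array 2 is high in both sets (0.30 and 0.29) and PMSG array 4 is low in both (-0.21 and -0.49).

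The genes whose levels over the 8 arrays followed the mean of the 8 fully detected germline probes most closely, among 13800 named genes, were Cxxc4, Zfp644, Ccdc79, A4galt and Rnf180, with Pearson correlations from 0.996 to 0.991. Their log2 differences were 1.36, 0.51, 1.82, 2.41 and 1.54. With the mean of each label removed, so that only the spread within labels counted, the closest were Stk11, Padi6, Serpinc1, Ttc14 and Slitrk6, with correlations from 0.969 to 0.936. Padi6, a maternal-effect gene of the reference list, was the only one of these 10 that belongs to a list used here. With 8 arrays and so many genes, correlations of this size are a description of these arrays.

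Promoter windows of 300 bases, from 250 before to 50 after the start, were found in RefSeq (GRCr8 build) for 7 of the 9 genes, all but Pou5f1 and Ybx2, with 2 windows for Lhx8. They were searched for the palindromic E-box CACGTG, for the E-box CAGGTG on both strands, and for the homeodomain words TAATTA and TAATTG on both strands; CACGTG and CAGGTG both belong to the general E-box CANNTG, which helix-loop-helix factors such as FIGLA and SOHLH1 bind. CACGTG was found in 3 of the 8 windows, those of Sohlh1, Ddx4 and Mael, and in 6.42% of all 33469 windows. CAGGTG was found in 2 of the 8, those of Figla and Nobox, and in 18.8% of all windows. TAATTA and TAATTG were found in 0 of the 8 windows, and in 5.36% and 8.20% of all. The stretches that hold the matches are shown 5′ to 3′ in the direction of the gene, with the matches in capitals.
Sohlh1, chr3:29065657-29065741, minus strand: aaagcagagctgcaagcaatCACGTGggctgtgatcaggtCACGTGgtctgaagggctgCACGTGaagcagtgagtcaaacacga
Ddx4, chr2:46016006-46016051, minus strand: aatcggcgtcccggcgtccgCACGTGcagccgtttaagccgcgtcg
Mael, chr13:81029819-81029864, minus strand: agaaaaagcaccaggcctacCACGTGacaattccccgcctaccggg
Figla, chr4:119989761-119989806, plus strand: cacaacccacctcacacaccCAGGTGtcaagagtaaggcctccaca
Nobox, chr4:73134482-73134608, minus strand: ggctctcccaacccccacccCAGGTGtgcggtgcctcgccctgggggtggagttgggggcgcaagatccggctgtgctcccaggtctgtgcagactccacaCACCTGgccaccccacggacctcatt
Sohlh1 has 3 matches of CACGTG within its stretch, starting at -133, -113 and -94 from the start of the gene. In Ddx4 and Mael the match begins at -80 and -221. Counts of CpG in the windows ran from 4 for Figla to 32 for Ddx4, with a median of 18 over the 8 windows and of 7 over all windows. General E-boxes were found in 6 of the 8 windows and in 72.1% of all. Windows of the 13 oocyte reference genes found in the table held CAGGTG in 8 of 16 and CACGTG in 3 of 16, with a median of 5.5 CpG, and windows of meiosis genes held CACGTG in 4 of 12. CACGTG was also in 3 of 10 windows of the other germline transcription list and in 8 of 34 of the germline RNA list. Their medians were 14.5 and 19.5 CpG. These matches describe the letters of the windows and were not tested.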

How the data were processed

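The authors deposited scanner files of 1-colour Cy3 arrays, whose spot intensity values, background-subtracted and detrended, come from Agilent Feature Extraction 11.5.1.1, per the file headers; probe coordinates are on rn4. Labelling started from 500 ng of RNA and an oligo-dT primer, per the labels' protocols. A deposited table of log2 values matched log2 signals minus the 75th percentile of the array (median absolute difference 0.0101, lowest correlation 0.998) and was used as an alternative; 0 columns were left unused.

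Control and outlier spots were removed, log2 processed signals of a probe's spots were averaged, and 17 probes without a usable spot were dropped, leaving 30350. No spot was saturated (0). Each array's 75th percentile was subtracted. Detection on an array required a share of 0.5 or more of the probe's spots to be well above background, and testing required detection on 4 or more of the 8 arrays. The comparison of labels used limma (version 3.58.1, R version 4.3.3; Benjamini-Hochberg over the 25303 probes, threshold 0.05), and again after subtracting the mean of the oocyte reference genes; intervals are 95%. The procedure was tested on simulated data. Lists used the probe of highest mean signal per gene name of the array files. Genes named are the 9 regulators, up to 4 genes per list with the largest difference past the threshold, and the 5 closest profiles; any other gene was named after its values were seen. The genes and lists were chosen with earlier results of these data known, and the promoter words after part of the sequences had been seen. The number of arrays, 4 per label, limits the precision.
Bounds set each dim array to the higher of the probe's own value and the lowest spot well above background. They take no account of the spread between arrays. Deviations of same-numbered arrays from their label's mean had correlations across probes of 0.0444, 0.0361, 0.183 and -0.0192. Differently numbered arrays were not compared, so this does not decide whether the numbers pair the arrays. All arrays lay on 1 slide.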

Additional observations from a re-analysis of the deposited data

Results flagged for a closer look

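Of 48 groups of 4 values examined (the 10 germline probes and the mean levels of 14 gene lists, in each label), 4 had 1 array far from the others, measured as the gap to the nearest array over the range of the group. Chance gives about 1 in 20 such groups, here 2.4. For Figla in arrays labelled PMSG the gap was 0.836 of the range, PMSG array 3 standing at -0.93 against -1.10 to -1.07. The mean level of the widely expressed relatives on control array 2 was apart with a gap of 0.915, at 0.33 against 0.22 to 0.23. PMSG array 4 was apart for the granulosa list (gap 0.893), at 2.09 against 2.39 to 2.43, and for the theca and luteal list (gap 0.845), at 1.52 against 2.33 to 2.48.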

How the results depend on the processing

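The count of differing probes, 8658, ran from 6552 to 11382 over 17 alternatives, and that of germline probes higher and past the threshold, 8, from 7 to 9. Figla, Nobox, Sohlh1, Lhx8, Mael and both Dazl probes kept their direction and call under all 17. Not all stayed at 2-fold, which is 1 on the log2 scale. Sohlh1 was at 0.98 with median centring. With normexp, Ddx4 was at 0.48 and the Dazl probe from base 983 at 0.87. Leaving out 1 array gave 6552 to 11382 differing probes, 7 to 9 germline probes called higher, a median difference of 1.60 to 1.88, and 1 to 3 probes past the threshold relative to the oocyte reference genes. Background correction by normexp, with an offset that shrinks the differences of dim probes, gave a median difference of 1.08 in place of 1.71 and 5 probes past the threshold relative to the reference in place of 3. Signs relative to the reference turned under it for Nobox (-0.30), Mael (-0.17) and the Dazl probes from base 2695 (-0.12) and base 983 (-0.55). Of these the last passed with a smaller difference than the reference (limma adjusted p = 0.0162), and so did Ddx4 (-0.93). Dazl from base 2695 passed with a larger difference than the reference when the zona genes were left out of it (0.53, limma adjusted p = 0.0377). Signs also turned under quantile normalization for Nobox (-0.012) and Dazl from base 983 (-0.072), with array weights for the latter (-0.016), and without Kit and Bmp6 in the reference for Nobox (-0.096) and Dazl from base 983 (-0.10). Without 1 array the ranges were -0.019 to 0.16 for Nobox, -0.48 to 0.055 for Ddx4 and -0.014 to 0.23 for Dazl from base 983. The causes were not tested. The replicate block gave 7346 differing probes and the slide row as a block 8124, each with 8 germline probes called higher; under either, Lhx8 missed the threshold relative to the reference (adjusted p = 0.0823 and 0.0662). Ddx4 and Ybx2 were not measured above background on every array, which limits what can be said of them. The median difference over all probes, 0.11, was 0.03 under quantile normalization and -0.05 with median centring.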
